A study of Mus musculus with 214 samples.

Results

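Of the 19540 genes measured in Mgmt-/- livers and the 18647 measured in WT livers, 9 genes that encode hepatocyte transcription factors and liver nuclear receptors were followed. They were chosen by symbol, and all 9 were found in both tables. They are Hnf4a, Cebpa, Foxa2, Onecut1 and Prox1, which encode factors that establish and maintain hepatocyte identity, and Nr1i3, Nr1i2, Nr1h4 and Ppara, which encode nuclear receptors. Mouse liver RNA was measured by 3′ digital gene expression, a method that counts sequenced tags from the ends of transcripts. WT mice carried RaDR+/+ and GPT+/+, and Mgmt-/- mice carried both of these alleles and lacked Mgmt, the gene of the enzyme that removes methyl groups from O6-methylguanine. All mice were on a C57BL/6 background. Litters were given either saline or NDMA, N-nitrosodimethylamine, a methylating carcinogen that is activated in the liver, by intraperitoneal injection at postnatal days 8 and 15. The NDMA doses were 3.5 mg/kg and then 7 mg/kg. Livers of both sexes were collected 1, 2 and 5 days, 10 weeks and 10 months after the second injection. Each library came from 1 mouse, and whole litters shared a treatment, so mice of a group may be littermates.

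In order of time, the Mgmt-/- groups used here held 12, 7, 6, 8 and 12 saline livers and 12, 8, 8, 8 and 13 NDMA livers. The WT groups held 21, 8, 7, 8 and 10 saline livers and 26, 8, 8, 8 and 13 NDMA livers. The RaDR and GPT transgenes were carried by every group, so no group was free of them. The deletion removes Mgmt in every cell and not in the liver alone. In WT libraries Mgmt lay between 13.0 and 130 normalized counts (median 45.8), and in Mgmt-/- libraries between 0 and 9.67 (median 1.09).

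These genes sit at several levels of one network. Hnf4a encodes a nuclear receptor family member that binds a large share of hepatocyte genes, Cebpa a basic leucine zipper factor of metabolic genes, Foxa2 a forkhead factor that opens chromatin early in liver development, Onecut1 the factor HNF6, which acts in hepatocytes and bile duct cells, and Prox1 a homeobox factor of hepatocytes and lymphatic endothelium. Nr1i3 encodes CAR and Nr1i2 encodes PXR, receptors that switch on cytochrome P450s, conjugating enzymes and transporters in response to foreign compounds. Nr1h4 encodes FXR, the bile acid receptor, and Ppara the fatty acid receptor that drives fasting metabolism. The receptors CAR, PXR, FXR and PPARA pair with retinoid X receptors to bind DNA.

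In the GRCm38 build with the GENCODE vM21 annotation, all 9 are protein-coding genes. Nr1i3 lies on the plus strand at chr1:171213970-171220701, Ppara on the plus strand at chr15:85734983-85802819, Nr1h4 on the minus strand at chr10:89454234-89533585 and Nr1i2 on the minus strand at chr16:38248323-38294824. Hnf4a lies on the plus strand at chr2:163506808-163572910, Cebpa on the plus strand at chr7:35119293-35121928, Foxa2 on the minus strand at chr2:148042877-148046969, Onecut1 on the plus strand at chr9:74861921-74891781 and Prox1 on the minus strand at chr1:190118035-190170714. The exons of Nr1i3 share 3304 bases with those of Tomm40l, a protein-coding gene on the opposite strand that encodes a mitochondrial import channel protein. Whether the counting used strand is not given in the sources used here, so reads of Nr1i3 and Tomm40l cannot be told apart with certainty. Onecut1 shares exon bases with Gm20649, a non-coding gene on the same strand that is listed in neither table.

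The promoters of 3 receptor genes are shown, because these are the receptors called lower after NDMA. Each is the RefSeq window of 250 bases before to 50 after a start site in GRCm38.p6, 5′ to 3′ on the strand of the gene. The Nr1i3 window is chr1:171213720-171214019 on the plus strand, the Ppara window chr15:85735526-85735825 on the plus strand and the Nr1h4 window chr10:89506609-89506908 on the minus strand. Capitals mark matches to the motifs searched.
Nr1i3 promoter: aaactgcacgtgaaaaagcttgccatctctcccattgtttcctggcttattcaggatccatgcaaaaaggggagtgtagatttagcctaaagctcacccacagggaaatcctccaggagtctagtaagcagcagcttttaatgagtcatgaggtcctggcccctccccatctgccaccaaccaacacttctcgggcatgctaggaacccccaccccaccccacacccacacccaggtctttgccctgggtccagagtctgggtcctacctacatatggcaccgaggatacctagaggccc
Ppara promoter: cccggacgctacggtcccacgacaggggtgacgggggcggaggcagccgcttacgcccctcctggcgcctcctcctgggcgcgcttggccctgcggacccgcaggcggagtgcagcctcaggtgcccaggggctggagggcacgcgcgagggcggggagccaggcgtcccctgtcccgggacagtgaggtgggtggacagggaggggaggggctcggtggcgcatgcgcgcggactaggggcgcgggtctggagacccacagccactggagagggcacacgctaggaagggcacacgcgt
Nr1h4 promoter: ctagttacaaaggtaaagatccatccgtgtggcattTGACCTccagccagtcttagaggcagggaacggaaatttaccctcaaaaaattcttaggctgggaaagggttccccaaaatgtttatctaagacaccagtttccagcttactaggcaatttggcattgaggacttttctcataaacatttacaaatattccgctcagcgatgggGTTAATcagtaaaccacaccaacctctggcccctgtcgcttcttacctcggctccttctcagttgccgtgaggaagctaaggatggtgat

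All 9 genes matched at least 1 window in this set, with 13 windows in all. Both strands of each were searched for the nuclear receptor half-site AGGTCA, the HNF4A site CAAAGTCCA, the CEBP site TTGCNNAA, the FOXA site TGTTTAC, the HNF6 site ATTGAT and the HNF1 half-site GTTAAT. Among 32851 promoter windows of the same length these letters were found in 16.3%, 0.475%, 10.8%, 3.65%, 7.54% and 7.10%, in that order. The Nr1h4 window held AGGTCA once, on the opposite strand and so printed as TGACCT, and GTTAAT once. The Nr1i3 and Ppara windows held no match, which says only that these letters are not in these windows. The Hnf4a windows held ATTGAT once and GTTAAT 2 times, and the Foxa2 windows held 1 match to each of these 2 motifs. GC content was 54.0% in the Nr1i3 window, 74.7% in the Ppara window, with 30 CpG dinucleotides, and 45.7% in the Nr1h4 window, against a median of 52.7% over all windows.

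Values are gene counts that were divided by a size factor for each library, called normalized counts here. Each genotype was normalized by itself, so levels of WT and Mgmt-/- livers are not on 1 scale. A gene was called when the adjusted p of limma was under 0.05 and the log2 difference was over 0.58 in size. Total reads could be recovered in 95 of 96 Mgmt-/- and 114 of 117 WT libraries. They ranged from 713584 to 7740710 in these Mgmt-/- libraries and from 150038 to 4791649 in these WT libraries, of which 4, all NDMA, held fewer than 300000. Several libraries stood apart. In 2 Mgmt-/- saline day 5 libraries the kidney gene Kap reached 6147 and 7562 normalized counts, against at most 13.9 in any other Mgmt-/- library, and Foxa2 was 0 in both. Both were left out. Saline week 10 library D209001 of an Mgmt-/- male held the highest Foxa2 and Ppara values of its group, so results that rest on it are given with and without it. At month 10, the NDMA libraries D209016 and D209018, both of Mgmt-/- males, held the 2 lowest values of their group for Hnf4a, Cebpa, Foxa2, Prox1 and Ppara, and the month 10 differences of these genes, Nr1i3 and Nr1h4 are given with and without them. The expression of sex-linked genes went against the label in 2 WT NDMA day 1 libraries.

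Nr1i3, the gene of the xenobiotic receptor CAR, fell after NDMA in Mgmt-/- livers at 4 of 5 times, with log2 differences from -0.62 to -1.20. At day 5 it was not called, and it was lower again at week 10 and at month 10. Ppara fell at days 1 and 2 and at week 10, and Nr1h4, the gene of the bile acid receptor, at week 10. Nr1i2, the gene of PXR, was called at no time. In bulk liver RNA, fewer cells of a type and less RNA per cell cannot be told apart.

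At day 1, Nr1i3 was between 75.8 and 195, with a median of 140.1, normalized counts in the 12 Mgmt-/- saline livers and between 52.9 and 149.6, with a median of 73.9, in the 12 NDMA livers. Of the NDMA livers, 11 lay below the saline median and 6 below the lowest saline liver, with overlap of the ranges. The log2 difference was -0.76 ± 0.17 (SE, adjusted p = 0.00076). At day 2, it was between 98.0 and 192, with a median of 123, in saline and between 58.9 and 125, with a median of 69.3, in NDMA livers. At that time 7 of 8 NDMA livers lay below the saline median, and the log2 difference was -0.82 ± 0.18 (SE, adjusted p = 0.00092). At day 5, the saline livers had a median of 151 and the NDMA livers one of 164, with a log2 difference of 0.05 and a 95% interval of -0.22 to 0.33. The day 5 groups overlapped, and 1 of 8 NDMA livers lay below the lowest saline liver.

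The late values of Nr1i3 were lower again. At week 10, Nr1i3 was between 93.3 and 308, with a median of 154, in the 8 saline livers and between 49.6 and 109, with a median of 65.7, in the 8 NDMA livers. All 8 NDMA livers lay below the saline median and 6 below the lowest saline liver, with a log2 difference of -1.20 ± 0.18 (SE, adjusted p = 4.2e-05). At month 10, it was between 92.1 and 281, with a median of 190.1, in 12 saline livers and between 59.1 and 224, with a median of 94.9, in 13 NDMA livers. Here 11 of 13 NDMA livers lay below the saline median, the groups overlapped, and the log2 difference was -0.62 ± 0.14 (SE, adjusted p = 0.0049). Without libraries D209016 and D209018 it was -0.62 (adjusted p = 0.0058), still called. The month 10 call was lost in 4 of 12 other settings, over which the log2 difference ran from -0.66 to -0.51. Neither edgeR nor DESeq2 called Nr1i3 at month 10.

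Because reads of Nr1i3 and Tomm40l cannot be told apart with certainty, the 2 genes were also examined together. Tomm40l rose at day 1, with a log2 difference of 0.84 ± 0.18 (SE, adjusted p = 0.00039), and at day 2, with 0.66 ± 0.18 (SE, adjusted p = 0.0065). It was not called later, with log2 differences of 0.04 at week 10 and 0.12 at month 10. With the counts of both genes added together, the log2 difference was -0.30 (adjusted p = 0.10) at day 1, -0.46 (adjusted p = 0.015) at day 2, -0.90 (adjusted p = 0.00037) at week 10 and -0.51 (adjusted p = 0.016) at month 10. The sum was called at week 10 alone. The week 10 difference is therefore present in the 2 genes together, and the day 1 difference of the sum did not pass the test. The 2 library batches at day 1 each gave a lower Nr1i3, with log2 differences of -0.66 (adjusted p = 0.038) in batch 191212Eng and -0.97 (adjusted p = 0.016) in batch 200803Eng.

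Ppara, the gene of the fatty acid receptor, was between 233 and 458, with a median of 285, in saline and between 109.7 and 305, with a median of 184, in NDMA livers of Mgmt-/- mice at day 1. Of the 12 NDMA livers, 9 lay below the lowest saline liver, and the log2 difference was -0.62 ± 0.13 (SE, adjusted p = 0.00032). By batch it was -0.76 (adjusted p = 0.00077) in 191212Eng and -0.32 (adjusted p = 0.46) in 200803Eng, where it was not called. At day 2, Ppara was between 149 and 333, with a median of 245, in saline and between 131 and 187, with a median of 148, in NDMA livers, and all 8 NDMA livers lay below the saline median. The log2 difference was -0.61 ± 0.13 (SE, adjusted p = 0.00081). At day 5, the medians were 179 and 148, with an interval of -0.43 to 0.07 for the log2 difference.

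At week 10, Ppara was between 165 and 514, with a median of 219, in saline and between 78.1 and 170.4, with a median of 124, in NDMA livers. Of the 8 NDMA livers, 7 lay below the lowest saline liver, and 1 NDMA liver reached into the saline range. The log2 difference was -0.96 ± 0.21 (SE, adjusted p = 0.0031). Without library D209001, which held the highest saline value, it was -0.79 and was still called. At month 10, Ppara was between 429 and 875, with a median of 502, in saline and between 165 and 701, with a median of 478, in NDMA livers, with a log2 difference of -0.44 ± 0.18 (SE, adjusted p = 0.12) that was not called. In that group 5 of 13 NDMA livers lay below the lowest saline liver. The 2 lowest were libraries D209016 and D209018, and without them the log2 difference was -0.27 (adjusted p = 0.30).

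Nr1h4, the gene of FXR, was between 125 and 227, with a median of 194, in saline and between 66.0 and 159.9, with a median of 106, in NDMA livers of Mgmt-/- mice at week 10. All 8 NDMA livers lay below the saline median and 5 below the lowest saline liver, with a log2 difference of -0.68 ± 0.19 (SE, adjusted p = 0.018). Without library D209001 it was -0.74 and was still called. The week 10 call was lost in 2 of 12 other settings, over which the log2 difference ran from -0.74 to -0.47. At days 1, 2 and 5 the log2 differences of Nr1h4 were -0.11, 0.00 and -0.02, and at month 10 it was -0.31 (adjusted p = 0.16). None of these 4 was called. Without libraries D209016, which held the highest Nr1h4 of its group, and D209018 the month 10 difference was -0.43 (adjusted p = 0.015), under the threshold of 0.58. Nr1i2, the gene of PXR, had medians between 46.8 and 67.2 normalized counts over the 10 Mgmt-/- groups. Its farthest log2 difference was -0.40 (adjusted p = 0.0496), at day 2, with an interval of -0.70 to -0.09, under the threshold of 0.58.

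**Figure D1:**
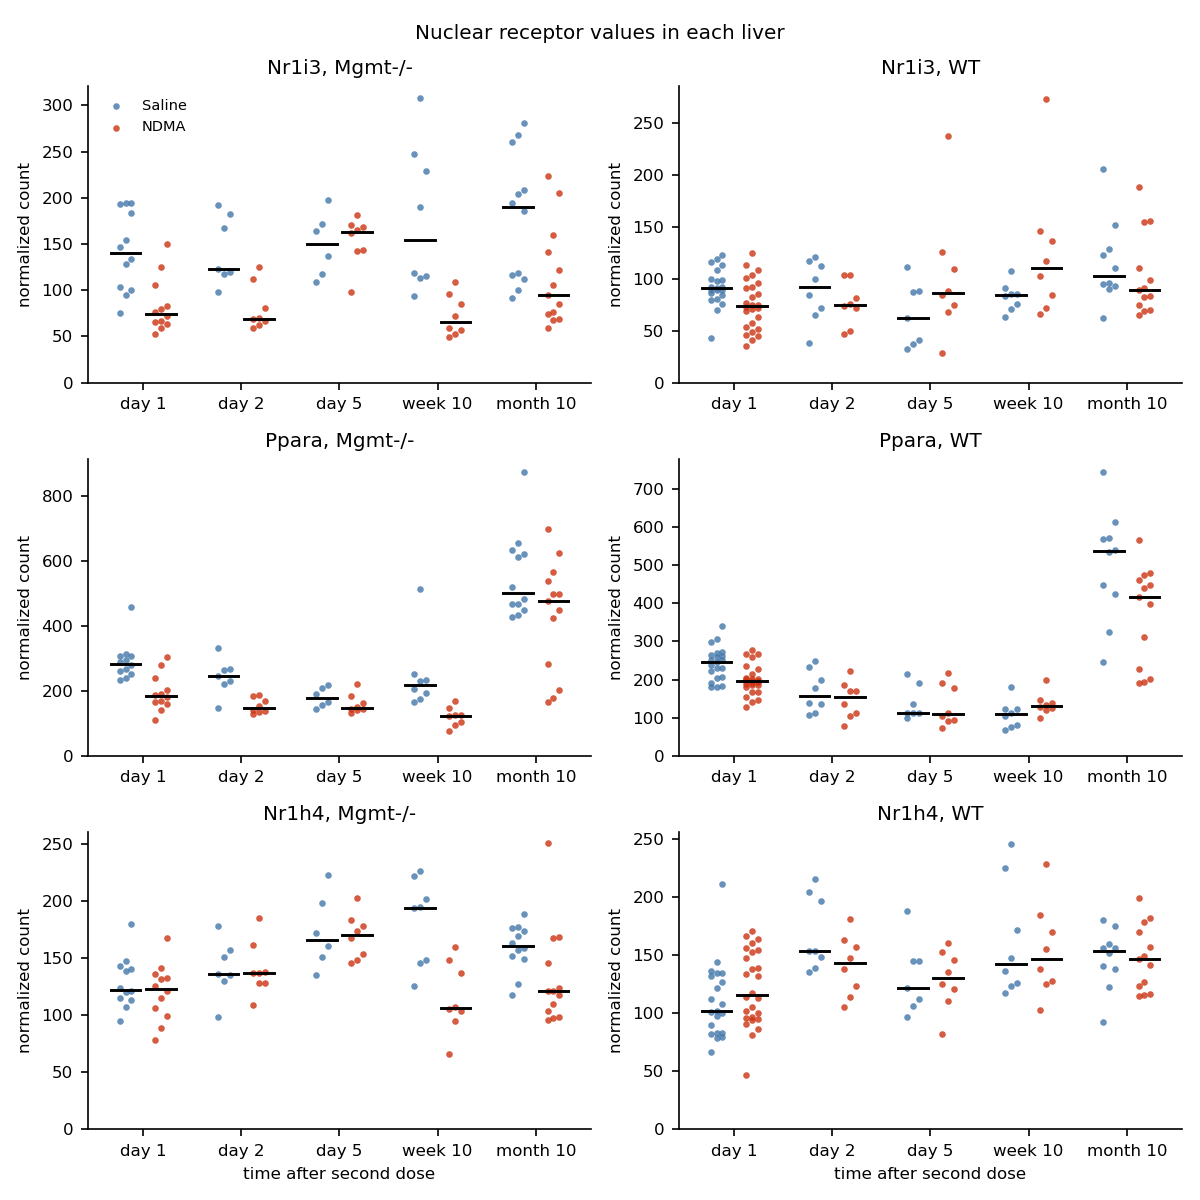
Normalized counts of Nr1i3, Ppara and Nr1h4 (rows) in each liver of Mgmt-/- mice (left) and WT mice (right) by time after the second dose, with saline in blue, NDMA in red and a line at the median of each group. At week 10 the Mgmt-/- NDMA medians were 65.7, 124 and 106, against 154, 219 and 194 in saline, and the panels of the 2 genotypes have separate scales.

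Among the 5 hepatocyte factors in Mgmt-/- livers, Hnf4a, Foxa2 and Prox1 were called after NDMA at no time, Onecut1 rose at day 1 and Cebpa fell at week 10. Hnf4a, the broad hepatocyte regulator, was between 122 and 264, with a median of 160.2, in saline and between 116 and 242, with a median of 131, in NDMA livers at day 1. At week 10, Hnf4a was between 141 and 290.2, with a median of 212, and between 116 and 236, with a median of 184, in the same order, so the NDMA livers spanned most of the saline range. Its log2 differences over the 5 times ran from -0.18 at day 1 to -0.04 at day 2, and the widest 95% interval, at month 10, was -0.47 to 0.34. At month 10, Hnf4a was 169 and 207 in NDMA libraries D209018 and D209016, and between 403 and 686 in the other 11. With all 13 NDMA livers the log2 difference was -0.06 (adjusted p = 0.88), and without these 2 it was 0.17 (adjusted p = 0.53).

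Onecut1, the gene of HNF6, was between 5.76 and 65.8, with a median of 19.8, in saline and between 28.3 and 86.4, with a median of 44.2, in NDMA livers at day 1. All 12 NDMA livers lay above the saline median, and 9 of 12 saline livers lay below the lowest NDMA liver. The log2 difference was 1.01 ± 0.28 (SE, adjusted p = 0.0087). It was 1.07 (adjusted p = 0.023) in batch 191212Eng and 0.88 (adjusted p = 0.21) in batch 200803Eng. At the other times the log2 differences were 0.37 at day 2, -0.68 (adjusted p = 0.19) at day 5, -0.10 at week 10 and -0.41 at month 10, with none called. Onecut1 also spread most among livers of a group, with a median coefficient of variation of 62.1% over the 10 Mgmt-/- groups, against 18.1% for Nr1h4.

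Cebpa, the gene of C/EBP alpha, was between 139 and 272, with a median of 232, in saline and between 78.4 and 203, with a median of 153, in NDMA livers at week 10. All 8 NDMA livers lay below the saline median and 3 below the lowest saline liver. The log2 difference was -0.59 ± 0.19 (SE, adjusted p = 0.0495), at the edge of the threshold, and without library D209001 it was -0.57 and not called. The call was lost in 9 of 12 other settings. At month 10, Cebpa was -0.45 (adjusted p = 0.051), with 8 of 13 NDMA livers below the lowest saline liver. Without libraries D209016 and D209018 it was -0.29 (adjusted p = 0.12).

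Foxa2, the forkhead factor, had log2 differences between -0.45 and -0.11, all of them below 0. At week 10, Foxa2 was between 14.8 and 129, with a median of 30.1, in saline and between 16.8 and 37.0, with a median of 23.5, in NDMA livers, where the highest saline value came from library D209001 and the next was 34.7. The log2 difference was -0.39 (adjusted p = 0.48), and without that library it was -0.08 (adjusted p = 0.84). Prox1, the homeobox factor, had log2 differences between -0.27 and 0.21. At month 10, Foxa2 was -0.45 (adjusted p = 0.20) and Prox1 -0.13 (adjusted p = 0.68), and without libraries D209016 and D209018 they were -0.25 (adjusted p = 0.44) and 0.07 (adjusted p = 0.79).

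Counted over all 9 genes in Mgmt-/- livers, 1 was higher and 2 were lower at day 1, where 9.06% of all genes tested were called higher and 8.64% lower. At day 2, 2 were lower and none higher, against 7.50% and 12.4% of all genes. At day 5, none was called in either direction, against 11.1% higher and 6.71% lower. At week 10, 4 were lower and none higher, against 3.88% and 7.27%, and at month 10, 1 was lower and none higher, against 2.99% and 4.75%. Of the 45 tests, 10 were called and 17 had an unadjusted p under 0.05. In order of time, the 17 were 4, 4, 0, 4 and 5. Of all genes, 3574 of 10055 were under it at day 1, 3414 of 9469 at day 2 and 3144 of 9306 at day 5. At week 10 these were 2332 of 9681, and at month 10 2423 of 10066. A count near these shares is no result about the 9 genes. On reads recovered from the values, edgeR called 6, with 17 under 0.05 unadjusted, and DESeq2 called 8, with 16. The median log2 difference of the 9 genes was -0.19, -0.22, -0.03, -0.39 and -0.41 from day 1 to month 10, against 0.02, 0.03, 0.03, 0.04 and -0.01 over all genes tested. With all libraries scaled to 1 common total instead, the median over all genes became 0.20, 0.19, 0.17, 0.24 and -0.01, the calls of all genes became 1634 higher and 511 lower at day 1 and 1162 higher and 177 lower at week 10, against 911 and 869 and against 704 and 376, and 5 of the 10 member calls remained. These 5 were Onecut1 at day 1, Nr1i3 at day 2, week 10 and month 10, and Ppara at week 10.

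**Figure D2:**
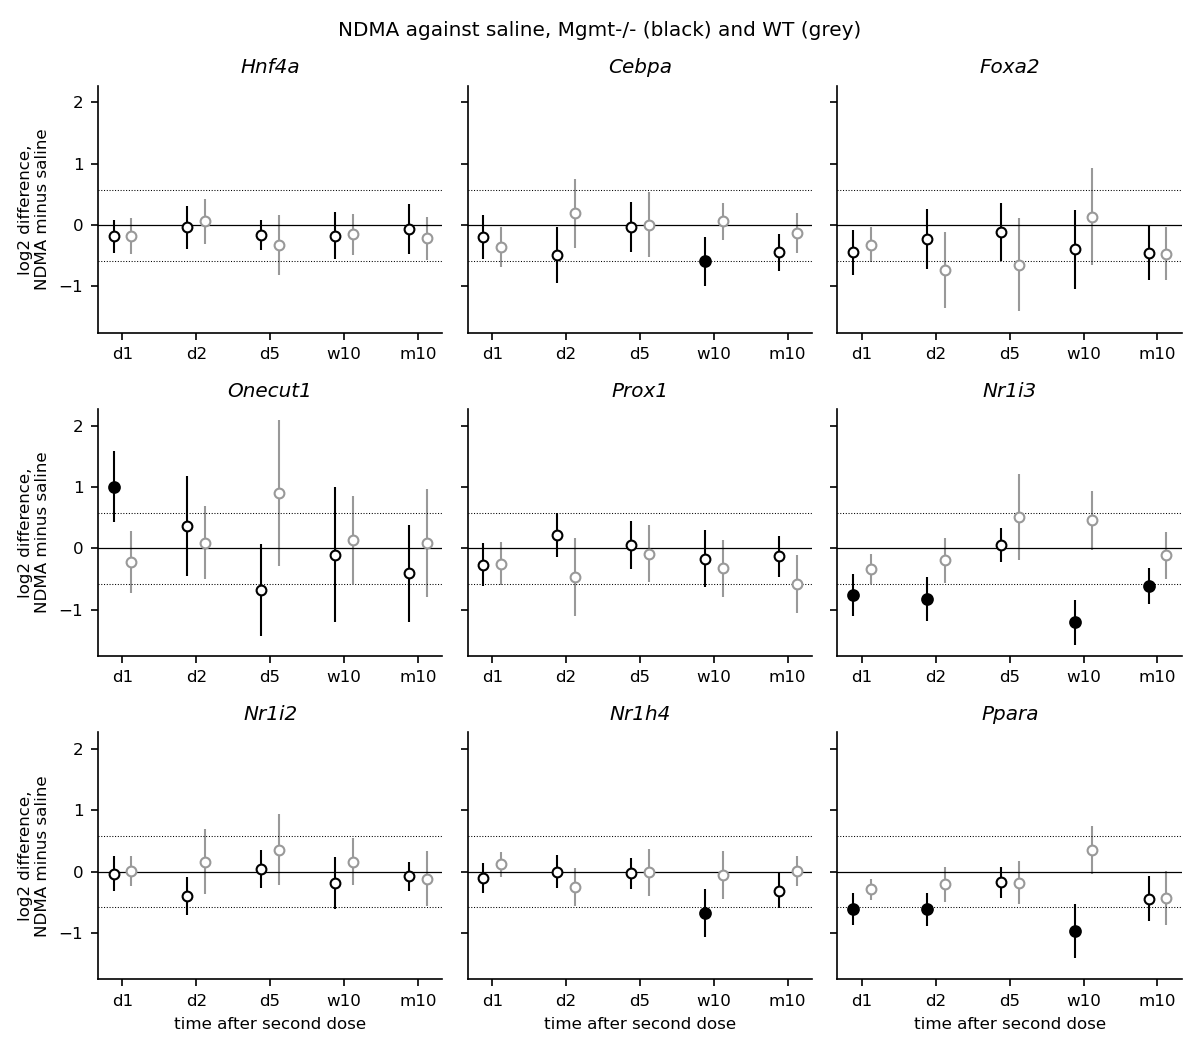
Log2 difference between NDMA and saline livers of each of the 9 genes (panels) at 5 times after the second dose in Mgmt-/- (black) and WT (grey) mice, where points are estimates, bars 95% intervals, filled points calls and dotted lines the threshold of 0.58. The 10 filled points all belong to Mgmt-/- mice, with Nr1i3 the lowest at week 10, at -1.20.

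In WT livers, none of the 9 genes was called after NDMA at any time. Of the 45 tests, 7 had an unadjusted p under 0.05 by limma, 8 by edgeR and 7 by DESeq2, and neither of these other tools made a call. Of all genes, 2917 of 9028 were under 0.05 unadjusted by limma at day 1 and 1806 of 8568 at day 2. At day 5, week 10 and month 10 these were 1549 of 8654, 350 of 8048 and 757 of 9254. A count near these shares is no result about the 9 genes. The share of all genes called in either direction was 9.19% at day 1, 6.23% at day 2, 3.61% at day 5, 0.0249% at week 10 and 0% at month 10, so few genes of any kind were called late in WT mice. At day 1, Nr1i3 was between 43.5 and 123, with a median of 91.0, in 21 saline livers and between 35.3 and 125, with a median of 73.7, in 26 NDMA livers. The groups overlapped, and the log2 difference was -0.34 ± 0.12 (SE, adjusted p = 0.039), smaller than the threshold of 0.58. Ppara was between 179.6 and 340.4, with a median of 246, in saline and between 128 and 278, with a median of 196, in NDMA livers, with a log2 difference of -0.29 ± 0.08 (SE, adjusted p = 0.0070). Within the WT batches of day 1, Nr1i3 differed by -0.45 on the log2 scale in 191212Eng, by -0.66 in 200803Eng and by -0.09 in 210901Eng. Ppara differed by -0.42, -0.16 and -0.28 in the same batches. The intervals at day 1 were -0.58 to -0.09 for Nr1i3 and -0.46 to -0.13 for Ppara.

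At week 10 the WT medians of Nr1i3 were 84.4 in saline and 110.2 in NDMA livers, with ranges of 63.4 to 108 and 66.0 to 274. The highest NDMA value came from library D215022, which held fewer than 300000 reads. The log2 difference of Nr1i3 was 0.46 (adjusted p = 0.91), that of Ppara 0.36 (adjusted p = 0.91) and that of Nr1h4 -0.06 (adjusted p = 0.97). At day 2, day 5 and week 10 all WT males were in 1 batch and all females in another, so there the parts of sex and of library batch cannot be told apart. Both treatments were present in each batch, and no member was called without the 2 libraries whose sex-linked genes went against their label, or without those under 300000 reads.

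Whether NDMA acted differently on these genes in the 2 genotypes was tested as a genotype by treatment term with edgeR on reads of both genotypes. At week 10, the term was -1.70 on the log2 scale for Nr1i3 (adjusted p = 0.00061) and -1.27 for Ppara (adjusted p = 0.0044), so the difference between NDMA and saline was more negative in Mgmt-/- than in WT livers for both genes. At week 10, 4.96% of all genes passed for this term. Both genes also passed in 4 of 4 other settings, and without the libraries under 300000 reads the terms were -1.55 for Nr1i3 and -1.20 for Ppara. The other 7 genes did not pass at week 10, with Nr1h4 at -0.57 (adjusted p = 0.26) and Cebpa at -0.57 (adjusted p = 0.21). None of the 9 passed at day 1, day 2, day 5 or month 10, where 0.0111%, 4.62%, 1.97% and 1.43% of all genes did. At day 2 the term was run on 12 saline and 16 NDMA libraries, though the saline groups held 7 Mgmt-/- and 8 WT livers. Whole reads of the other saline libraries of day 2 could not be recovered. Over the 45 tests 13 had an unadjusted p under 0.05. Of all genes, 930 of 9013 were under it at day 1, 1502 of 8397 at day 2 and 1187 of 8378 at day 5. At week 10 these were 1416 of 8004, and at month 10 1300 of 9220. The terms of Nr1i3 were -0.52 at day 1 (adjusted p = 0.36), -0.70 at day 2 (adjusted p = 0.19) and -0.49 at month 10 (adjusted p = 0.30). The week 10 libraries of each genotype came from their own batches, so a batch that altered the NDMA response and the genotype cannot be told apart. For Tomm40l the week 10 term was -0.30 (adjusted p = 0.75).

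Markers of liver cell types moved with treatment in the same Mgmt-/- livers. Their summed levels in normalized counts and their calls are given here in order of time, from day 1 to month 10. The 5 hepatocyte markers, of which Alb was the most abundant, had medians of 302754, 362767, 343817, 187242 and 155461 in saline and of 196701, 241145, 257072, 132568 and 161562 in NDMA livers, and of 5 markers tested, 0, 0, 0, 0 and 1 were called higher and 3, 3, 1, 1 and 0 lower. The marker called higher at month 10 was Apoa1, an apolipoprotein, with 0.58 (adjusted p = 0.042). The 8 bile duct cell markers, led by Spp1, had medians of 217, 283, 327, 86.9 and 87.0 in saline and of 137, 229, 119, 830.4 and 369 in NDMA livers, and of 1 to 2 markers tested, 0, 0, 0, 1 and 1 were called higher and 1, 0, 1, 0 and 0 lower. Spp1 itself fell at day 1, with -0.79 (adjusted p = 0.00042), and at day 5, with -1.41 (adjusted p = 1.5e-08), and rose at week 10, with 3.13 (adjusted p = 2.4e-05), and at month 10, with 2.48 (adjusted p = 1.5e-05). In saline livers at week 10, the markers Krt19, Krt7, Cldn7 and Cftr had a median of 0. The T and NK cell markers, led by Ccl5, had medians of 72.4, 74.1, 65.2, 29.3 and 15.1 in saline and of 131, 293, 404, 82.3 and 40.8 in NDMA livers, and of 1 to 3 markers tested, 2, 3, 3, 2 and 1 were called higher and 0, 0, 0, 0 and 0 lower. Macrophage markers, led by Clec4f, had medians of 496, 522, 534, 288 and 211 in saline and of 494, 699.9, 718, 424 and 307 in NDMA livers, and of 6 markers tested, 2, 4, 3, 2 and 1 were called higher and 2, 0, 0, 0 and 0 lower. T and NK cell markers were called higher at each of the 5 times, and macrophage markers in both directions at day 1.

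The stellate cell and fibroblast markers, led by Dcn, had medians of 1039.5, 1171, 1089, 399 and 518 in saline and of 712, 979, 902, 662 and 539.8 in NDMA livers, and of 6 to 7 markers tested, 1, 1, 1, 4 and 3 were called higher and 4, 3, 1, 0 and 0 lower. The red cell precursor markers, led by Hbb-bs, had medians of 39156, 31448, 45869.7, 8519.5 and 3233 in saline and of 22343, 20829, 29367, 9907 and 3269 in NDMA livers, and of 5 to 6 markers tested, 0, 0, 0, 0 and 0 were called higher and 6, 3, 5, 0 and 0 lower. The stellate calls were mostly lower at days 1 and 2 and all higher at week 10 and month 10, and the red cell calls were all at the first 3 times. The liver endothelium markers, led by Clec4g, had medians of 368, 405, 419.8, 278 and 169.6 in saline and of 214, 306, 283, 279 and 202 in NDMA livers, and of 5 markers tested, 0, 1, 1, 0 and 0 were called higher and 3, 1, 2, 0 and 0 lower. Stab2, a scavenger receptor of sinusoids, fell at days 1, 2 and 5, while Pecam1 rose at day 2, with 0.91 (adjusted p = 0.00040), and Cdh5 at day 5, with 0.84 (adjusted p = 0.013). The lymphatic endothelium markers, led by Lyve1, had medians of 136, 126, 107, 51.3 and 89.4 in saline and of 116, 150.3, 143, 71.6 and 111 in NDMA livers, and of 3 markers tested, 1, 1, 1, 1 and 1 were called higher and 1, 1, 1, 0 and 1 lower. The B cell markers, led by Cd79b, had medians of 21.2, 23.7, 18.5, 7.95 and 5.52 in saline and of 15.1, 21.0, 19.3, 13.1 and 9.71 in NDMA livers, and of 1 to 2 markers tested, 0, 0, 0, 0 and 0 were called higher and 1, 0, 0, 0 and 0 lower. The kidney markers Kap, Umod and Slc12a1 had a median of 0 in both treatments at day 1 and week 10. The part that these cell types had in the Nr1i3 and Ppara values was not tested.

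Technical measures moved with treatment too. The share of ribosomal protein genes had medians of 1.16, 0.967, 0.991, 1.46 and 0.767% in saline and 2.01, 1.39, 1.30, 1.70 and 0.878% in NDMA livers of Mgmt-/- mice from day 1 to month 10, and the ranges did not overlap at days 2 and 5. The share of values in the 50 most abundant genes had medians of 46.6% and 40.7% at day 1 and of 44.0% and 39.5% at week 10, in saline and NDMA livers. Their part in the values of the 9 genes was not tested.

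Known targets of the receptors were examined next, as lists of genes that general knowledge assigns to each receptor. The lists here and below do not separate genes that a receptor or factor induces from genes that it represses. Their counts and medians, and the fall or rise of a single target, therefore do not measure its activity. Of 14 CAR targets in Mgmt-/- livers, 9 were lower and 3 higher at day 1, 9 lower and none higher at day 2, 8 lower and 2 higher at day 5, 5 lower and 1 higher at week 10, and 7 lower and 1 higher at month 10. Their median log2 difference was -1.07, -0.88, -0.86, -0.72 and -0.56 at the 5 times. For this and each list below, the background in Mgmt-/- livers was 8.64%, 7.50%, 6.71%, 3.88% and 2.99% of all genes called lower and 9.06%, 12.4%, 11.1%, 7.27% and 4.75% called higher from day 1 to month 10. Where a list's share of calls lies near these values, its count is no result about the list. More CAR targets were called lower than higher at day 5 also, when Nr1i3 itself was not called. With all libraries scaled to 1 common total, the lower calls were 8, 9, 8, 5 and 6. Some genes are held by more than 1 list, and CYP2C and GST genes have close copies, so reads of single members are uncertain.

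Cyp2c37, a cytochrome P450, was between 441 and 1679, with a median of 766, in saline and between 55.5 and 269.6, with a median of 116, in NDMA livers at week 10, with no overlap. The log2 differences of Cyp2c37 were -2.84 ± 0.30 (SE, adjusted p = 1.8e-07) at day 1, -1.12 ± 0.24 (SE, adjusted p = 0.0032) at day 5 and -2.73 ± 0.19 (SE, adjusted p = 6.0e-10) at week 10. Cyp2c29, another P450 of the family, went from a median of 10029 to 2941 at day 5, with a log2 difference of -1.79 (adjusted p = 2.0e-05). Cyp2c50 fell at all 5 times, by 1.93 on the log2 scale at day 1 and by 0.59 at month 10. Gstm3, a glutathione transferase, went the other way, from 241 to 3355 at week 10, with a log2 difference of 3.92 (adjusted p = 1.4e-07).

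Of 11 PXR targets, 9 were tested. Lower calls numbered 3, 3, 1, 2 and 1 over the 5 times in Mgmt-/- livers and higher calls 0, 1, 1, 1 and 0, with medians of -0.36 at day 1, -0.03 at week 10 and -0.42 at month 10. With all libraries scaled to 1 common total, the median at week 10 was 0.18. Slco1a4, an organic anion transporter, fell at all 5 times, with -1.43 (adjusted p = 1.6e-07) at day 1 and -1.40 (adjusted p = 0.0020) at week 10. Abcb1a, a drug export pump, rose at day 2, day 5 and week 10, with 1.22 (adjusted p = 0.0050) at day 5. Cyp3a25, a P450 of the CYP3A family, fell at day 1, with -1.21 (adjusted p = 1.3e-06), and at day 2, with -0.84 (adjusted p = 1.4e-05).

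Of 13 FXR targets, 11 or 12 were tested. Lower calls numbered 5, 4, 4, 3 and 2 over the 5 times and higher calls 1, 1, 2, 1 and 0. The median log2 difference was -0.43, -0.25, 0.05, -0.49 and -0.23, and 0.20 at day 5 with all libraries scaled to 1 common total. The bile acid uptake transporter Slc10a1 fell at all 5 times, from 964 to 340.2 at week 10, with a log2 difference of -1.45 (adjusted p = 8.0e-05). The bile salt export pump Abcb11 fell at days 1, 2 and 5 and at month 10, with -0.94 (adjusted p = 3.3e-06) at day 1 and -0.65 (adjusted p = 0.11) at week 10, where it was not called. Nr0b2, the gene of the small heterodimer partner that FXR induces, fell at days 1, 2 and 5. It went from 281 to 107 at day 1, with -1.15 (adjusted p = 3.6e-06). At week 10, when Nr1h4 was low, Nr0b2 was -0.11 (adjusted p = 0.89). Slc27a5, the bile acid CoA ligase, fell at the first 4 times, with -1.24 (adjusted p = 1.8e-09) at day 1.

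PPARA targets moved in both directions. Of 24, of which 23 or 24 were tested, 5 were higher and 7 lower at day 1, 7 higher and 3 lower at day 2, 9 higher and 1 lower at day 5, 3 higher and 4 lower at week 10, and 6 lower with none higher at month 10. With all libraries scaled to 1 common total, the split at day 1 became 7 higher and 1 lower and at day 5 12 higher and 1 lower. At day 2 it was 7 higher and 2 lower, and under that scaling Ppara itself was -0.44 at day 2 and was not called. Vnn1, a pantetheinase, was between 53.3 and 88.0, with a median of 70.3, in saline and between 180.2 and 276, with a median of 229, in NDMA livers at day 2, with no overlap and a log2 difference of 1.72 ± 0.14 (SE, adjusted p = 4.0e-10). Fgf21, a fasting hormone of the liver, rose at days 1, 2 and 5 and at week 10, with 2.58 (adjusted p = 1.4e-05) at day 5. Acot1, an acyl-CoA thioesterase, rose at days 1, 2 and 5, with 2.26 (adjusted p = 2.6e-05) at day 2. Acot3, of the same family, fell at 4 times, with -1.98 (adjusted p = 1.1e-05) at month 10, and was 0.06 (adjusted p = 0.94) at day 5.

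Of 20 HNF4A targets in Mgmt-/- livers, lower calls numbered 5, 5, 3, 4 and 1 over the 5 times and higher calls 1 at each time. The median log2 difference was -0.37 at day 1 and -0.22 at week 10, and -0.01 at week 10 with all libraries scaled to 1 common total. Apoc2, the cofactor of lipoprotein lipase, was the gene called higher in each, and went from 2452 to 6891 at day 2, with 1.72 (adjusted p = 4.7e-08). F7, coagulation factor VII, fell at the first 4 times, with -0.99 (adjusted p = 2.3e-05) at day 1, and Ugt2b1, a conjugating enzyme, at day 2, day 5 and week 10. Of 10 CEBPA targets, lower calls numbered 5, 3, 1, 3 and 0 and higher calls 0, 0, 1, 0 and 0, with medians of -0.58, -0.32, -0.33, -0.24 and -0.06. Serpina1c, an alpha-1-antitrypsin gene with close copies, fell at the first 4 times, with -0.99 (adjusted p = 0.00012) at day 1. Alb, the albumin gene, fell at days 1 and 2, and was -0.61 (adjusted p = 0.087) at week 10. Cps1, the first enzyme of the urea cycle, fell at day 1, with -0.81 (adjusted p = 0.00027). Ugt1a1, which conjugates bilirubin and shares exons with its family, fell at days 1 and 2 and at week 10.

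In WT livers the same lists held calls at days 1, 2 and 5 and none at week 10 or month 10. Of all genes in WT livers, 4.19%, 2.91% and 1.39% were called lower and 5.01%, 3.33% and 2.22% higher at these 3 times. Given in the same order, the CAR targets counted 1, 5 and 3 lower and 3, 0 and 0 higher of 14 tested. The PXR targets counted 1, 1 and 3 lower and 0, 0 and 0 higher of 9 tested, and the FXR targets 3, 4 and 2 lower and 0, 1 and 0 higher of 12 tested. The PPARA targets counted 3, 2 and 1 lower and 2, 0 and 0 higher of 23 tested. For the 2 factors, the HNF4A targets counted 0, 5 and 3 lower and 1, 2 and 1 higher of 20 tested and the CEBPA targets 0, 5 and 2 lower and 0, 0 and 0 higher of 10 tested. Counts near the share of all genes are no result about a list. At week 10 the median log2 difference in WT livers was 0.19 for the CAR list and 0.13 for the PPARA list. The difference of the lists between genotypes was not tested. Cell type markers moved in WT livers too. At day 1, Stab2 was -0.97 and Spp1 0.65, each the only marker called in its list. Alb, at -0.92, was the only hepatocyte marker called at day 2. The ribosomal share had medians of 1.23% in saline and 1.63% in NDMA livers at day 2. At day 5 these were 1.21% and 1.92%. The part of these measures in the list counts was not tested.

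**Figure D3:**
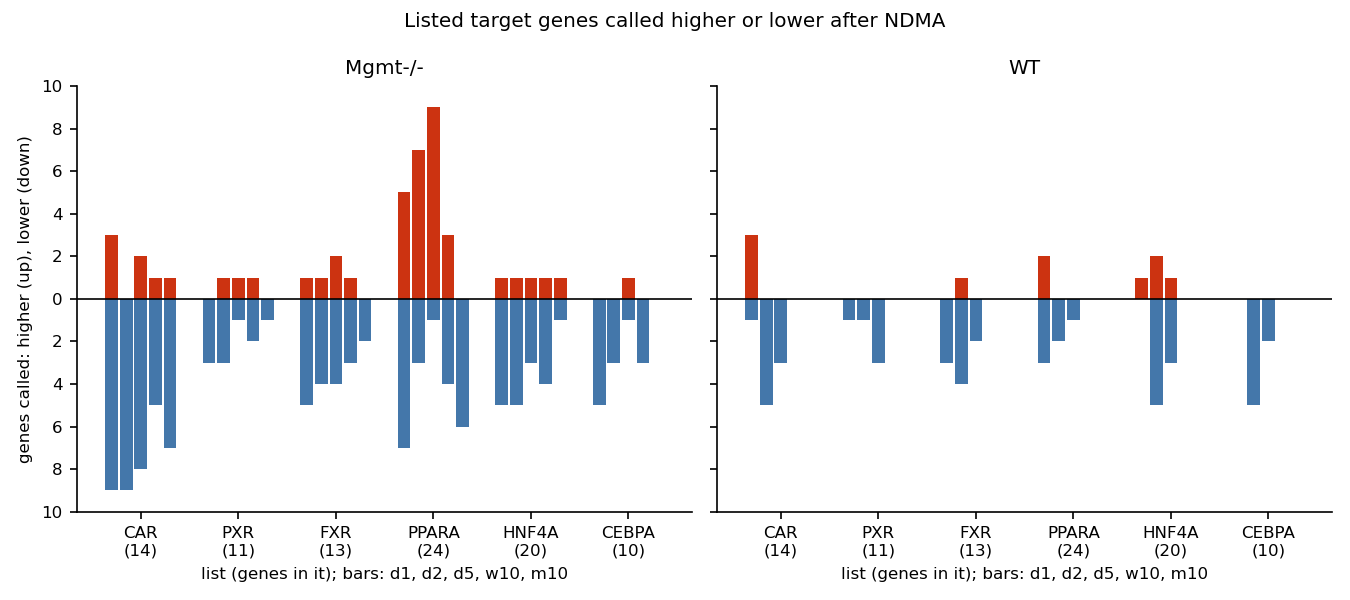
Number of genes called higher (red, up) or lower (blue, down) after NDMA in 6 lists of receptor and factor targets, in Mgmt-/- (left) and WT (right) livers, with 5 bars a list in order of time and the number of genes in each list in brackets. In Mgmt-/- livers the 14 CAR targets hold between 5 and 9 lower calls at every time, the PPARA list holds 9 higher calls at day 5, and in WT livers no bar is drawn at week 10 or month 10.

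The rest of the network was read from 3 further lists. Of 25 other liver transcription factors in Mgmt-/- livers, lower calls numbered 4, 5, 2, 5 and 1 and higher calls 1, 1, 2, 1 and 0 over the 5 times, with medians of -0.16, -0.30, -0.01, -0.22 and -0.23. Srebf1, which drives fatty acid synthesis, fell at all 5 times, from 109.8 to 26.3 at week 10, with -2.05 (adjusted p = 1.5e-05). Mlxipl, the gene of the glucose-responsive factor ChREBP, fell at day 1, day 5 and week 10, with -1.54 (adjusted p = 0.00048) at week 10. Dbp, a clock-controlled factor, rose at days 1, 2 and 5, with 1.02 (adjusted p = 0.0020) at day 5, and fell at week 10, with -1.07 (adjusted p = 0.0056). Tbx3, a T-box factor, fell at days 1 and 2, with -1.75 (adjusted p = 0.00045) at day 2.

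Of 44 other nuclear receptors, 22 to 26 were tested, and lower calls numbered 3, 3, 1, 3 and 1 and higher calls 0, 0, 1, 0 and 0, with medians of -0.19, -0.18, -0.12, -0.36 and -0.14. Rxrg, a partner of these receptors, fell at days 1 and 2, with -1.36 (adjusted p = 0.00052) at day 1. Esr1, the estrogen receptor, fell at day 2, with -0.74 (adjusted p = 0.022). Of the coregulators, none was called at any time in either genotype. Of them, 12 or 13 were tested in Mgmt-/- livers, and at an unadjusted p under 0.05 there were 0, 0, 3, 0 and 2. Of all genes, 3574 of 10055, 3414 of 9469, 3144 of 9306, 2332 of 9681 and 2423 of 10066 were under it at these times. With all libraries scaled to 1 common total, 1 coregulator was called higher at day 5.

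In saline livers, levels were followed across ages. Most calls lay between week 10 and month 10, when 5 of the 9 genes rose in Mgmt-/- livers and 6 in WT livers, and none fell. Hnf4a, Cebpa, Foxa2, Prox1 and Ppara rose in both genotypes. Onecut1 was called in WT livers and had a log2 difference of like size in Mgmt-/- livers, 0.90 against 1.10, and the difference between genotypes was not tested. Nr1i3, Nr1i2 and Nr1h4 were called in neither. Over the same interval 31.0% of all genes were called higher and 20.0% lower in Mgmt-/- livers, and 39.8% higher and 21.2% lower in WT livers. The median log2 difference of the 9 genes was 0.97 and 1.58, against 0.18 and 0.36 over all genes. With all libraries scaled to 1 common total, the median over all genes became 0.56 and 0.75 and the calls of all genes 4625 higher and 970 lower in Mgmt-/- and 4680 higher and 1102 lower in WT livers, against 3064 higher and 1980 lower and 3602 higher and 1923 lower. In the same livers the share of ribosomal protein genes had medians of 1.46% at week 10 and 0.767% at month 10 in Mgmt-/- mice and of 1.11% and 0.679% in WT mice. The share of the 50 most abundant genes went from 44.0% to 38.2% and from 48.0% to 37.2%. Their part in these changes was not tested.

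Cell type markers moved over this interval too. The hepatocyte markers of Mgmt-/- saline livers counted 1 higher and 4 lower of 5 tested (median -0.92), where Ttr, the transthyretin gene, was -1.34 (adjusted p = 4.2e-05), Serpina1c -1.30 (adjusted p = 3.6e-06), Fgb, a fibrinogen chain, -0.92 (adjusted p = 1.3e-05), Apoa1 -0.82 (adjusted p = 0.00076) and Alb 0.69 (adjusted p = 0.00018). In WT livers they counted 0 higher and 4 lower of 5 tested (median -1.13), with Ttr at -1.49 (adjusted p = 7.3e-12) and Fgb at -1.52 (adjusted p = 1.2e-10). The markers of hepatocytes, whose factors rose, were thus mostly lower at month 10. The macrophage markers counted 0 higher and 3 lower of 6 tested (median -0.58) in Mgmt-/- and 0 higher and 3 lower of 6 tested (median -0.74) in WT livers, the red cell precursor markers 0 higher and 4 lower of 6 tested (median -1.31) and 0 higher and 5 lower of 6 tested (median -1.48), and the T and NK cell markers 0 higher and 2 lower of 3 tested (median -0.98) and 0 higher and 1 lower of 3 tested (median -1.06). The liver endothelium markers counted 0 higher and 1 lower of 5 tested (median 0.07) and 1 higher and 1 lower of 5 tested (median 0.56), with Clec4g, a sinusoid lectin, at -1.72 (adjusted p = 3.8e-10) and -2.44 (adjusted p = 3.0e-09). The bile duct cell markers counted 1 higher and 0 lower of 2 tested (median 0.41) and 0 higher and 0 lower of 2 tested (median 0.12), with Sox9 at 1.34 (adjusted p = 0.00084) in Mgmt-/- livers, and the stellate cell and fibroblast markers 1 higher and 0 lower of 6 tested (median 0.54) and 1 higher and 0 lower of 6 tested (median 0.14). The lymphatic endothelium markers, a cell type that also uses Prox1, counted 2 higher and 0 lower of 3 tested (median 0.66) and 2 higher and 1 lower of 3 tested (median 1.09), and of the B cell markers none was called. The part of these cell types in the rises was not tested.

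Medians are given here from day 1 to month 10, with the range over all saline livers of the genotype. For Hnf4a, the medians of Mgmt-/- livers were 160.2, 131, 147, 212 and 532 (all livers 86.4 to 683), and those of WT livers 115, 76.6, 101, 136 and 413 (all livers 42.5 to 629). For Cebpa, they were 54.2, 28.0, 27.6, 232 and 438 (all livers 18.9 to 559) in Mgmt-/- and 25.1, 40.7, 59.3, 64.4 and 298 (all livers 7.30 to 482) in WT livers. For Foxa2, they were 41.4, 23.2, 18.8, 30.1 and 71.2 (all livers 13.3 to 129) in Mgmt-/- and 30.7, 35.8, 27.3, 20.0 and 65.2 (all livers 3.91 to 80.6) in WT livers. Month 10 was the highest age for each of these factors in both genotypes. For Onecut1, they were 19.8, 15.6, 24.0, 83.7 and 181 (all livers 5.68 to 529) in Mgmt-/- and 26.2, 20.0, 18.8, 37.0 and 107 (all livers 4.32 to 159) in WT livers. For Prox1, they were 112, 72.5, 50.5, 103 and 234 (all livers 36.4 to 400.2) in Mgmt-/- and 77.0, 56.7, 55.3, 42.7 and 230.3 (all livers 22.5 to 339) in WT livers. Week 10 was the lowest age of Prox1 in WT livers, before the rise at month 10. For Nr1i3, they were 140.1, 123, 151, 154 and 190.1 (all livers 75.8 to 308) in Mgmt-/- and 91.0, 91.9, 62.4, 84.4 and 103 (all livers 32.2 to 206) in WT livers. For Nr1i2, they were 47.9, 60.2, 61.7, 55.7 and 67.2 (all livers 24.6 to 90.7) in Mgmt-/- and 30.8, 22.2, 24.9, 30.4 and 47.6 (all livers 7.73 to 68.7) in WT livers. For Nr1h4, they were 123, 136, 166, 194 and 161 (all livers 94.8 to 227) in Mgmt-/- and 102, 153, 122, 142 and 154 (all livers 66.6 to 246) in WT livers. These receptor genes thus had medians within a narrower span over age than Ppara. For Ppara, they were 285, 245, 179, 219 and 502 (all livers 143 to 875) in Mgmt-/- and 246, 158, 113, 109 and 536 (all livers 69.0 to 743) in WT livers.

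Prox1 was between 48.0 and 129, with a median of 103, at week 10 and between 179 and 400.2, with a median of 234, at month 10 in Mgmt-/- saline livers, with no overlap and a log2 difference of 1.30 ± 0.20 (SE, adjusted p = 4.0e-07). In WT livers Prox1 was between 22.5 and 58.5, with a median of 42.7, and between 110.2 and 339, with a median of 230.3, at these ages, with no overlap and a log2 difference of 2.49 ± 0.21 (SE, adjusted p = 1.2e-15). Ppara was lowest at week 10 in WT livers, between 69.0 and 179.9, with a median of 109, and highest at month 10, between 246 and 743, with a median of 536. The WT ranges of Ppara did not overlap, and the log2 difference was 2.19 ± 0.17 (SE, adjusted p = 2.3e-16). Ppara of Mgmt-/- livers rose by 1.22 ± 0.16 (SE, adjusted p = 1.6e-08), where library D209001 alone reached into the month 10 range, and by 1.39 without it. Hnf4a rose by 1.27 ± 0.17 (SE, adjusted p = 4.0e-08) in Mgmt-/- and by 1.58 ± 0.19 (SE, adjusted p = 2.4e-10) in WT livers.

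Cebpa rose by 1.08 ± 0.18 (SE, adjusted p = 1.2e-06) in Mgmt-/- and by 2.27 ± 0.22 (SE, adjusted p = 3.3e-13) in WT livers between week 10 and month 10. Foxa2 rose by 0.97 ± 0.25 (SE, adjusted p = 0.00098) and 1.65 ± 0.28 (SE, adjusted p = 1.0e-06), in the same order, and by 1.25 in Mgmt-/- livers without library D209001. With the 2 libraries of high Kap kept in, the rise of Foxa2 in Mgmt-/- livers was not called (0.97, adjusted p = 0.082). Onecut1 rose by 1.10 ± 0.50 (SE, adjusted p = 0.047) in WT livers, where edgeR did not call it (0.82, adjusted p = 0.14), and was 0.90 (adjusted p = 0.13) in Mgmt-/- livers. In Mgmt-/- livers Nr1i3 was between 92.1 and 281, with a median of 190.1, at month 10, and its log2 difference from week 10 was 0.00, with an interval of -0.40 to 0.39. In WT livers it was 0.46 (adjusted p = 0.031), under the threshold of 0.58. Nr1h4 had the order week 10, day 5, month 10, day 2 and day 1 from high to low in Mgmt-/- saline livers, and every pair of neighbours in it overlapped. For Nr1i3 the order was month 10, week 10, day 5, day 1 and day 2, with overlap of every pair of neighbours. The order for Ppara was month 10, day 1, day 2, week 10 and day 5, again with overlap of every pair of neighbours.

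The other genes of the network also differed between week 10 and month 10 in saline livers. The coregulators of Mgmt-/- livers counted 11 higher and 0 lower of 13 tested (median 1.00), the other nuclear receptors 17 higher and 1 lower of 26 tested (median 0.96) and the other liver transcription factors 14 higher and 2 lower of 24 tested (median 0.71). In WT livers the same lists counted 10 higher and 0 lower of 12 tested (median 1.84), 18 higher and 1 lower of 26 tested (median 1.81) and 18 higher and 1 lower of 24 tested (median 1.73). Over all genes 31.0% were called higher and 20.0% lower in Mgmt-/- livers, and 39.8% and 21.2% in WT livers. Target lists were mixed. The HNF4A targets of Mgmt-/- livers counted 2 higher and 6 lower of 20 tested (median -0.14), the PPARA targets 10 higher and 1 lower of 23 tested (median 0.56) and the CAR targets 2 higher and 1 lower of 14 tested (median 0.01). Between day 1 and day 5 the CAR targets counted 8 higher and 0 lower of 14 tested (median 1.29) in Mgmt-/- saline livers, against 2.21% of all genes higher and 3.02% lower over that interval, in which Nr1i3 had a log2 difference of 0.16 (adjusted p = 0.74).

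Between day 1 and day 5, Prox1 and Ppara fell in Mgmt-/- saline livers, with log2 differences of -0.89 ± 0.24 (SE, adjusted p = 0.018) and -0.70 ± 0.19 (SE, adjusted p = 0.020), while 5.23% of all genes were called. For Ppara the day 5 livers, 143 to 219, lay below all day 1 livers, 233 to 458. In WT livers none was called over this interval, in which 0.431% of all genes were. The WT livers of day 1 shared no batch with those of day 5 or week 10. With batch as a term, WT differences from day 1 rest on batch 200803Eng, which held livers of day 1 and month 10. For Cebpa the WT log2 difference from day 1 to day 5 was -0.61 ± 0.40 (SE), while its median went from 25.1 to 59.3. The lack of WT calls from day 1 therefore does not show that levels held steady. Between day 1 and week 10, none of the 9 was called in Mgmt-/- or WT livers, with 16.8% and 9.48% of all genes called. In Mgmt-/- livers 3 of the 9 had an unadjusted p under 0.05 over that interval, and in WT livers 2. Of all genes, 2885 of 9885 and 1995 of 9050 were under it, in the same order. Without library D209001, Foxa2 was also called lower at day 5 than at day 1 (-0.76), Nr1h4 higher at week 10 (0.61) and Prox1 lower at week 10 (-0.72) in Mgmt-/- livers. Levels at day 1 moved with library batch, most of all for Cebpa. In saline Mgmt-/- livers its median was 42.5 in batch 191212Eng and 176 in batch 200803Eng, and in saline WT livers it was 31.4 in 191212Eng and 90.3 in 200803Eng, with values between 7.30 and 24.8 in 210901Eng. In saline WT livers the medians of Nr1i2 were 42.1, 28.8 and 17.2 in batches 191212Eng, 200803Eng and 210901Eng, those of Nr1h4 86.3, 97.4 and 132, and those of Hnf4a 107, 99.0 and 165, so 210901Eng was lowest for Nr1i2 and highest for the other two. Ages were compared with batch as a term, and Mgmt-/- livers of week 10 and month 10 were all in batch 200803Eng.

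**Figure D4:**
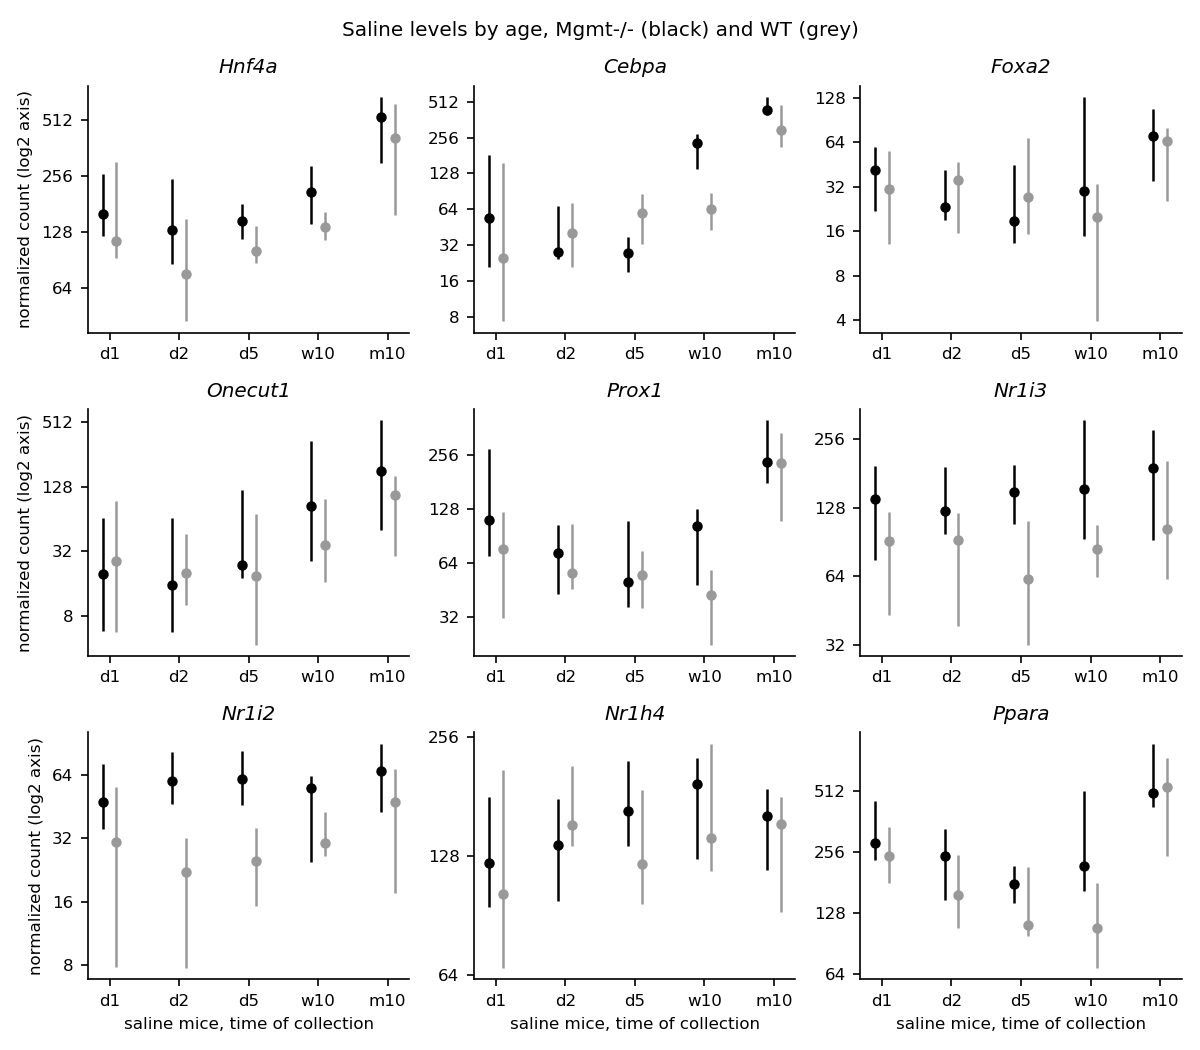
Normalized counts of the 9 genes (panels, log2 axis) in saline livers at 5 times of collection, for Mgmt-/- (black) and WT (grey) mice, which were normalized separately, with points at medians and lines from the lowest to the highest liver. Medians of Ppara at month 10 were 502 in Mgmt-/- and 536 in WT livers, against 219 and 109 at week 10.

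Nr1i3 differed between the sexes in adult Mgmt-/- livers. In saline livers of week 10 and month 10 together, males were lower, with a log2 difference of -1.09 ± 0.14 (SE, adjusted p = 2.1e-06), and 1 of the 9 genes was called, against 1.93% of all genes higher and 2.28% lower in males. At week 10 the 4 saline females had 189.6, 228, 248 and 308 normalized counts and the 4 saline males 93.3, 113, 116 and 118. All 4 females lay above all 4 males. At month 10, 7 saline females ranged from 185 to 281 (median 209) and the 5 males had 92.1, 99.8, 113, 117 and 118, again with no overlap.

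After NDMA the females had 56.4, 85.2, 95.7 and 109 at week 10 and the males 49.6, 52.8, 59.1 and 72.2. NDMA livers of each sex lay below all saline livers of the same sex at week 10. At month 10, 7 NDMA females ranged from 84.6 to 224 (median 142) and 6 NDMA males from 59.1 to 106 (median 71.8), so the sexes overlapped. The other receptor genes did not pass for sex. Nr1i2 was -0.51 (adjusted p = 0.063) and Ppara 0.02 (adjusted p = 0.98), and Tomm40l, which shares exon bases with Nr1i3, was -0.06 (adjusted p = 0.94). Of the 14 CAR targets, 6 were lower and 2 higher in males. In WT saline livers the Nr1i3 medians were 77.3 in females and 88.2 in males at week 10, where batch followed sex. At month 10 the 4 WT saline males had 62.3, 93.6, 152 and 206, and the 6 females lay between 90.4 and 129, with overlap. Most of these males were in a different library batch from most of these females. The overlap therefore does not show that the sexes were alike, and a sex difference in WT livers was not tested.

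The sex by treatment term was passed by none of the 9 genes in Mgmt-/- livers at any time, and 6 of the 45 tests had an unadjusted p under 0.05. At day 1 none of the 9 genes and 715 of all 10055 genes were under it. At day 2 these were 1 of the 9 and 255 of 9469. At day 5 they were 1 of the 9 and 443 of 9306, at week 10 1 of the 9 and 408 of 9681. At month 10 they were 3 of the 9 and 1968 of 10066. A count near these shares is no result about the 9 genes. Of all genes, 0% passed at day 1, 0% at day 2, 0% at day 5, 0.114% at week 10 and 0.338% at month 10. For Nr1i3 at week 10 the term, male minus female, was 0.59 on the log2 scale, with an interval of -0.12 to 1.30. At month 10, Hnf4a was -1.10 (adjusted p = 0.096) and Ppara -0.90 (adjusted p = 0.14). Both rest in part on the males D209016 and D209018, without which the terms were -0.65 (adjusted p = 0.35) and -0.57 (adjusted p = 0.44).

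**Figure D5:**
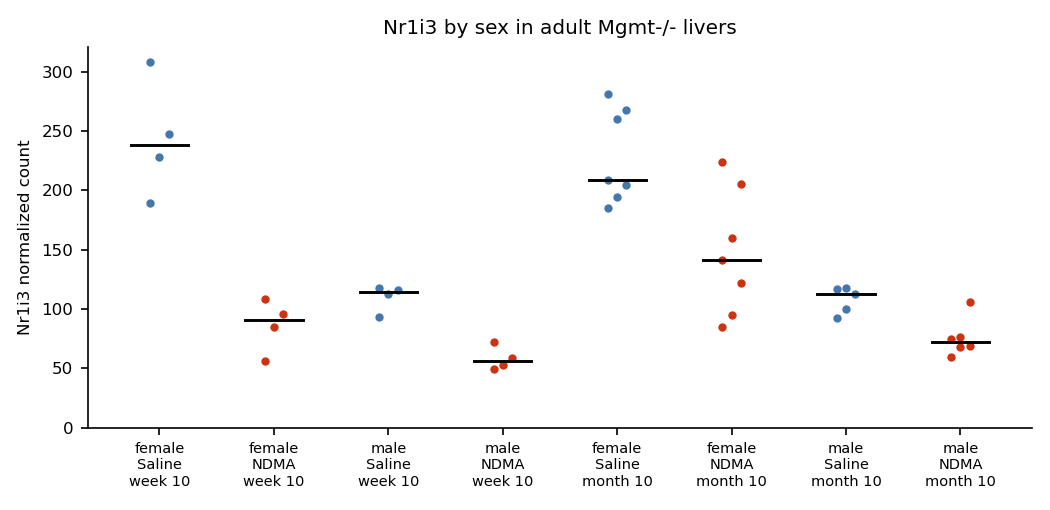
Normalized counts of Nr1i3 in each adult Mgmt-/- liver at week 10 and month 10 by sex and treatment, with saline in blue, NDMA in red and a line at each median. Saline females had medians of 238 and 209 and saline males 114 and 113.

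The means of the 9 genes over the 10 Mgmt-/- groups of time and treatment were set against each other as a description. Pearson's r of the log2 means was 0.89 between Hnf4a and Cebpa, 0.92 between Hnf4a and Prox1, 0.96 between Foxa2 and Prox1 and 0.93 between Foxa2 and Ppara. Between Nr1i3 and Nr1h4 it was 0.80 and between Nr1i3 and Nr1i2 0.71, while between Nr1i3 and Prox1 it was 0.07. Over the 10 WT groups these 7 pairs had an r of 0.86, 0.85, 0.93, 0.89, 0.30, 0.74 and 0.36, in the same order. Groups of the same age share library batches, and differences between ages are part of each of these values. Among 8351 genes, those whose means were most like Nr1i3 were Ttc23 (r = 0.928), Plbd1 (r = 0.897) and Agmat (r = 0.890), with an r of 0.302, 0.442 and 0.642 over the WT groups. Those most like Ppara were Slc22a23 (r = 0.976), Esr1 (r = 0.976) and Arhgap5 (r = 0.971), with 0.875, 0.933 and 0.852 in WT. Those most like Hnf4a were Wbp1l (r = 0.989), Ppp1r16a (r = 0.989) and Gnas (r = 0.988), with 0.986, 0.827 and 0.979 in WT. Those most like Nr1h4 were Tspan12 (r = 0.885), Zdhhc6 (r = 0.850) and Flad1 (r = 0.847), with 0.747, 0.524 and -0.056 in WT. For the remaining members the most like gene was Wipi2 for Cebpa (r = 0.995, and 0.810 over the WT groups), Tomm70a for Foxa2 (r = 0.990, and 0.968 over the WT groups), Tusc2 for Onecut1 (r = 0.995, and 0.906 over the WT groups), Zfp36l1 for Prox1 (r = 0.992, and 0.957 over the WT groups) and C87436 for Nr1i2 (r = 0.926, and 0.352 over the WT groups).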

How the data were processed

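Liver tissue of 214 labelled mice was profiled by 3′ digital gene expression, with molecular identifiers in the primers. Per the study's methods, the authors aligned reads with STAR to GRCm38 (mm10), assigned them to genes with ESAT, and scaled each genotype's gene counts with size factors from DESeq2. The deposited values are these normalized counts, a signal that is no longer whole. Versions, the gene annotation and the use of strand are not given in the sources used here. For 1 sample no column was found, so 213 columns were used.

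Whole reads were recovered in 209 columns (tolerance 0.1 reads). The 4 others entered no count test. Kept genes had a mean of at least 5 in the comparison. limma 3.58.1 in R 4.3.3, with trend and robust settings, was run on log2(value + 1), so fold changes of low genes are understated. Its terms were treatment or age, sex and library batch where these could be fitted, and adjusted p-values (Benjamini-Hochberg) cover all genes tested. The genotype by treatment term and alternatives used edgeR 4.0.16, and DESeq2 1.42.0 was another alternative. Python 3.11.15 with pandas 2.3.3, numpy 2.4.6 and matplotlib 3.10.9 made summaries and plots. Depth differed between libraries, and intervals of low genes are wide, most of all in WT libraries. The part of depth in this width was not tested.

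The 9 members and all lists were chosen with earlier results of these data known. Of each pathway list, up to 4 genes were named, those called in the most of the 10 comparisons of NDMA with saline, and of each member the 3 genes of highest correlation over Mgmt-/- group means. Some genes that this rule or a list would name are not reported here. Left out were 2 Mgmt-/- saline day 5 libraries with Kap over 1000. Single batches other than 191212Eng, the loss of library D209001, of month 10 libraries D209016 and D209018, the sum of Nr1i3 and Tomm40l, and the genotype term without shallow libraries were added after seeing the data.

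On simulated counts for Mgmt-/- day 1, limma recovered 91% of 100 genes changed by 1 on the log2 scale and 100% of those changed by 2, among 10315 genes, with 3.05% false calls. For WT day 5 it recovered 49% and 98% among 7483 genes, with 5.77% false calls. With edgeR, 91% and 100% were recovered for Mgmt-/- day 1 among 10030 genes, with 4.02% false calls. For WT day 5 edgeR recovered 59% and 100% among 8654 genes, with 8.62% false calls. The simulation gave every gene the same spread between livers, with no sex or batch difference. Changes were given only to genes with means well above the filter of 5. These rates may therefore be too high for genes that spread more, such as Onecut1, or that move with batch, such as Cebpa.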

Additional observations from a re-analysis of the deposited data

Results flagged for a closer look

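Among 117 groups of 4 to 10 livers of the 9 genes, 11 held a value that stood apart from the rest of its group, and chance alone flags about 1 in 20 groups. In WT saline livers these were Onecut1 at day 2 (46.6 normalized counts in library D202002) and at day 5 (70.6 in D215009), and Prox1 at day 2 (106.1 in D202004). In WT NDMA livers Nr1i3 reached 237.7 at day 5 in D215014 and 273.8 at week 10 in D215022, where Ppara was 198.5. Both of these libraries held fewer than 300000 reads.

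In Mgmt-/- livers Cebpa reached 68.7 in saline library D389035 at day 2 and Onecut1 118.3 in saline library D389030 at day 5. Nr1i3 was 98.4 in NDMA library D389066 at day 5, the lowest value of that group. Saline library D209001 at week 10 held 129.4 for Foxa2 and 513.6 for Ppara, where the other 7 livers of its group lay lower in both genes.

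The NDMA difference at week 10 differed between genotypes by -1.70 for Nr1i3 and by -1.27 for Ppara on the log2 scale, by the genotype by treatment term of edgeR. Without library D209001 the terms were -1.78 and -1.06.

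The kidney gene Kap was 6147 in library D389011 and 7562 in library D389017, which are labelled as saline livers of Mgmt-/- mice at day 5. In these libraries Foxa2 was 0, Onecut1 was 0.352 and 0, Nr1i3 was 5.98 and 1.09, and Hnf4a was 149 and 124.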

How the results depend on the processing

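Of 61 counts of called members under another setting, 55 lay within 1.5 times the count reported. For NDMA in Mgmt-/- livers, 10 calls became 5 with all libraries scaled to 1 total, 6 with the total taken without the 50 most abundant genes and 6 with edgeR. DESeq2 made 8 calls, of which 7 were shared. In WT livers, 0 became 2 without the fold threshold (Nr1i3 and Ppara at day 1). Across ages, 7 calls in Mgmt-/- and 6 in WT livers became 11 and 13 with sex alone as a term. Scaling to 1 total also moved the calls of all genes at day 2 from 1170 higher and 710 lower to 1674 and 409, and at day 5 from 1037 and 624 to 1455 and 413.

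Of 26 called results, 16 were called in each setting run for them, 10 lost the call in at least 1, and none turned its direction. Nr1i3 and Ppara at week 10 kept it in 12 of 12 settings, with log2 differences from -1.22 to -0.90 and from -1.02 to -0.75. Nr1i3 at day 1 lost it in 2 of 13, at day 2 in 1 of 11 and at month 10 in 4 of 12. Ppara lost it at day 1 in 5 of 13 and at day 2 in 2 of 11, Nr1h4 at week 10 in 2 of 12, Onecut1 at day 1 in 2 of 13, and Cebpa at week 10 in 9 of 12. The rise from week 10 to month 10 lost it in 1 of 10 for Foxa2 in Mgmt-/- livers (0.97, adjusted p = 0.082, with the high-Kap libraries) and in 1 of 7 for Onecut1 in WT livers (0.82, adjusted p = 0.14, by edgeR). Without library D209001, the counts were 9 for NDMA in Mgmt-/- livers, 10 across ages, 2 for the genotype term and 1 for sex. Without D209016 and D209018 no count changed. The causes were not tested. No paired analysis was possible because the labels number each library by itself and no number is shared between groups. WT ages within batch 200803Eng gave no value, since it held no WT liver of week 10. Of the 9 genes, Foxa2 and Onecut1 had the widest intervals in WT livers, by their median over the 5 times. Small differences in these 2 genes may therefore have gone undetected.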
